A study of Mus musculus with 18 samples.

Results

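The mRNAs described here encode proteins of the small (40S) subunit of the cytoplasmic ribosome. They are the 29 genes of a list of member names (Rpsa, Rps2, Rps3, Rps3a1, Rps4x, Rps6, Rps7, Rps9, Rps10, Rps12 to Rps16 with Rps15a, Rps18 to Rps21, Rps23 to Rps29 with Rps27a and Rps27l, and Fau), taken by the gene name in each row of the count table. They make up 29 of 47643 genes and 132 of 115125 transcript entries, and all 29 passed the filter on low counts in each comparison. All libraries came from purified total RNA of 5G6GR cells, a mouse embryonic stem (ES) cell line grown without feeders and with leukemia inhibitory factor. In 15 libraries RNA diluted to 10 pg was copied by RT-RamDA, a reverse transcription that makes several cDNA copies from each RNA, and the cDNA was made into a library with a single-stranded DNA kit and 17 cycles of PCR. There were 3 libraries for each of 5 primer sets, namely random hexamers (N6), not-so-random primers designed against copying ribosomal RNA (NSR), oligo(dT) (dT), N6 with oligo(dT) (N6dT) and NSR with oligo(dT) (NSRdT). The other 3 libraries, called bulk, were made from 200 ng after removal of ribosomal RNA, with N6 as primer and 7 cycles of PCR. The labels do not say whether replicate libraries go back to different cultures. The p-values thus measure a spread between libraries that may be technical.

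Proteins of the 40S subunit fold around the 18S ribosomal RNA and form the part of the ribosome that binds mRNA and reads its codons. Their mRNAs are among the most abundant in growing cells, are short, have poly(A) tails and are translated together under the control of growth signalling. Several of the genes have many processed pseudogenes, which are copies of the spliced mRNA in the genome, so that short reads can match more than a single locus. Oligo(dT) starts cDNA at the poly(A) tail, while random primers can start it along the whole RNA.

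The coding sequences below show the genes in which the choice of locus bears on the results. They are joined exons of GENCODE vM21 transcripts on the mm10 (GRCm38) build, 5′ to 3′ on the coding strand. Rps27 is on chr3:90212522-90213651 (minus strand) and its coding sequence of 255 bases gives 84 residues.

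Rps27: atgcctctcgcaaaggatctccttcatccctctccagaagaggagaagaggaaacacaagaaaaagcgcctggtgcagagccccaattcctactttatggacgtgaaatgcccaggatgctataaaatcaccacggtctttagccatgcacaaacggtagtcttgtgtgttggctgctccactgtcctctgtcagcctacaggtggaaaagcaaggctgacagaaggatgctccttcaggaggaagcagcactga

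The coding sequence of Rps27rt, on chr9:114982366-114982739 (minus strand), has 0 differences from that of Rps27. In the paralog Rps27l, on chr9:66946086-66949516 (plus strand), capitals mark the 61 bases that differ from Rps27 at the same position.

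Rps27l: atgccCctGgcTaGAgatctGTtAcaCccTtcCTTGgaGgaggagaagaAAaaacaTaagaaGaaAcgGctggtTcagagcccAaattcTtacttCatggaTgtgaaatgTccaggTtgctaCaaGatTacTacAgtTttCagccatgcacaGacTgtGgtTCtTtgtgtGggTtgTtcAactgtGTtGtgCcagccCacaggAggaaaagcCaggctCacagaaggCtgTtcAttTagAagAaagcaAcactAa

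In Rps12, on chr10:23785183-23787275 (minus strand), capitals mark the 15 bases in a row that are absent from the copy Rps12-ps3 on chr19:59322290-59322783 (plus strand). Outside them the 414 bases of the Rps12 coding sequence match the copy without a substitution. Bases 72 to 206 of the coding sequence are shown.

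Rps12: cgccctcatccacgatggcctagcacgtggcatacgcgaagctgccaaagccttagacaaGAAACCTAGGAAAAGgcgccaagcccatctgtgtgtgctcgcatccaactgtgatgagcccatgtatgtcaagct

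Library totals, without 92 spike-in entries, ranged from 5333546 to 10234690 estimated counts. All 9 pluripotency markers, among them Pou5f1 and Nanog, were present in every library. In bulk replicate 2 the summed level of 9 primitive endoderm markers was 6421 CPM (counts scaled to 1000000 per library), against 722 and 782 CPM in the other bulk libraries and 250.2 to 477 CPM in the RT-RamDA libraries. Its part in the bulk results was not tested, but values without it are given below. Genes annotated as ribosomal RNA (rRNA) or encoded in mitochondria, with 6 more loci that hold rRNA-like sequence, took 12.8% ± 0.414 (SD) of counts in bulk and 26.8% ± 0.709 with dT. They took 47.9% ± 0.6 with NSRdT, 56.4% ± 0.899 with NSR, 62.7% ± 1.11 with N6dT and 66.3% ± 0.411 with N6.

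The 29 mRNAs together filled 2.82% ± 0.048 (SD, n = 3 here and below) of all counts with dT, more than with any other primer set. Their share was 0.366% ± 0.00566 with N6 and 0.446% ± 0.0109 with NSR. Adding oligo(dT) to these primers gave 0.756% ± 0.0161 with N6dT and 1.02% ± 0.0056 with NSRdT. The share in bulk was 1.96% ± 0.0581. The 6 groups did not overlap. Since rRNA took up different parts of each library, the shares were also computed without the genes and loci named above, a choice made after seeing the data. The highest was then 3.86% ± 0.0662 with dT, followed by 2.24% ± 0.0768 in bulk, 2.03% ± 0.061 with N6dT and 1.97% ± 0.0119 with NSRdT. The lowest were 1.09% ± 0.0259 with N6 and 1.02% ± 0.0341 with NSR. On this scale dT still stood highest, at 3.55 times N6 against 7.71 times on the scale of all counts. The order of N6 and NSR was turned round, and the mixed sets came to lie just under bulk.

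By mean CPM of the library total dT was the highest group for 24 of the 29 members and bulk for the other 5. The dT and bulk libraries overlapped for Rpsa, Rps9, Rps25 and Rps28 among the former and for Rps15, Rps16 and Rps23 among the latter. N6 was the lowest for 18, NSR for 9 and bulk for 2, Rps12 and Rps27. Where N6 or NSR was lowest, their libraries overlapped for Rps9, Rps15a, Rps16, Rps19, Rps23, Rps26, Rps29 and Fau. The order dT, bulk, NSRdT, N6dT, NSR, N6 was the most frequent and held for 12 members. Rps2, which lines the mRNA entry channel, had the highest mean with dT at 1984 ± 49.9 CPM, and Fau, whose protein is cut into a ubiquitin-like part and the ribosomal protein eS30, the lowest at 173 ± 14.5 CPM. These places hold for counts on the gene alone, by which Fau was also highest in bulk. With its near-identical copy added, Fau came to 473 ± 37.7 CPM with dT and 336 ± 12.4 CPM in bulk. Per kilobase of main transcript, the transcript with the largest mean count, the highest mean level with dT was that of Rps24 at 3273 CPM per kb and the lowest that of Rps15a at 140.8 CPM per kb, with a main transcript of 5179 nt. With the mean transcript length weighted by counts instead, Rps14 was highest with dT at 2703 CPM per kb. Rps15a was then still lowest, at 265.6 CPM per kb. The coefficient of variation between libraries had a median over members of 0.0391 in bulk, 0.0523 with NSRdT, 0.0556 with N6dT, 0.0774 with dT, 0.0913 with N6 and 0.121 with NSR. Fau in an NSR library had 64.5 counts, the fewest of any member in an RT-RamDA library.

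**Figure D1:**
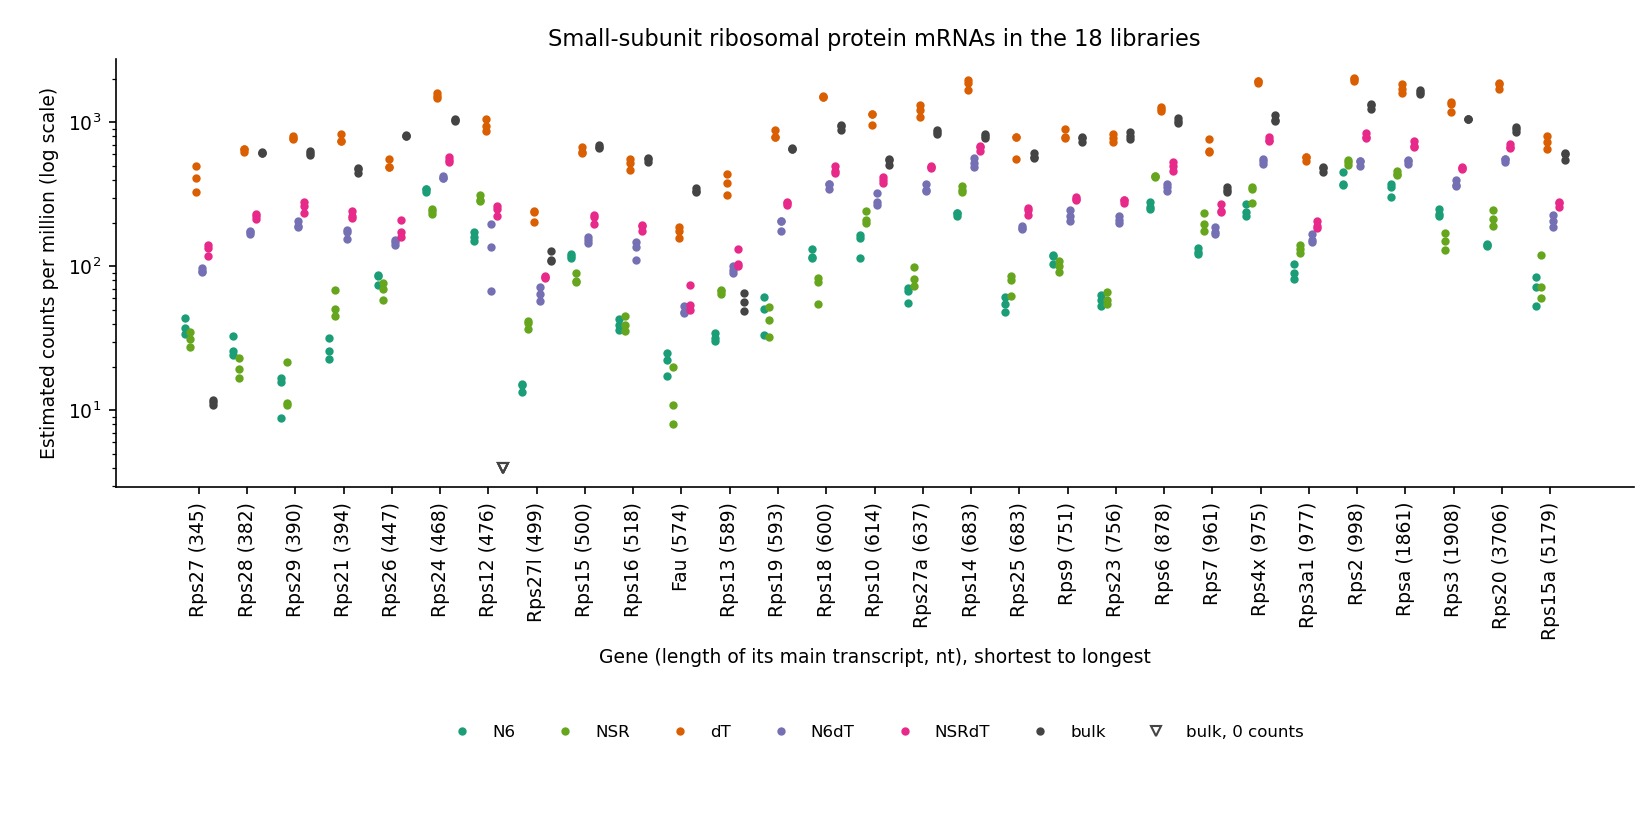
Level of each of the 29 mRNAs in the 18 libraries, in CPM on a log scale, with the members ordered by the length of the main transcript and each point a library. By mean, dT lies highest for 24 members and N6 or NSR lowest for 27, though libraries of neighbouring groups overlap for some members. Open triangles mark the 3 bulk libraries in which Rps12 had 0 counts.

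Random primers alone (N6 and NSR, 6 libraries) were compared with dT alone (3 libraries), to see how far a member depends on a primer at the poly(A) tail. All 29 members were lower with random primers and none overlapped. Over all genes tested 7.61% were called lower and 9.46% higher. Fold changes come from edgeR's quasi-likelihood test, fitted on all 15682 genes of the 15 RT-RamDA libraries with TMM scaling, and a gene is called at an adjusted p (Benjamini-Hochberg over all genes) under 0.05. The median log2 fold change of the members was -2.09, against 0.12 for all genes, and the members ran from -4.85 to -0.97. Scaled by library totals instead, the median of the members was -3.02 and that of all genes -0.80, so the gap to the other genes was much the same while each single value depends on the scale.

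The largest falls were those of Rps29, Rps28, Rps21 and Rps19. Rps29, a zinc-binding protein mutated in some patients with Diamond-Blackfan anaemia, had 15.7, 8.91 and 16.7 CPM with N6 and 21.8, 11.3 and 10.8 CPM with NSR. With dT it had 766, 799 and 781 CPM. Every dT library was far above every random-primed library, and the log2 fold change was -4.85 ± 0.22 (SE; edgeR adjusted p = 7.65e-11), a 28.8-fold difference after TMM scaling. The CPM values are on library totals, and on that scale the log2 fold change was -5.79. TMM scaling added 0.93 to each log2 fold change of this comparison. Rps28, which sits near the mRNA exit channel, had 32.9, 24.1 and 25.7 CPM with N6, 19.5, 23.2 and 16.8 CPM with NSR and 654, 651 and 620 CPM with dT. Its fall was -3.85 ± 0.12 on the log2 scale (edgeR adjusted p = 1.42e-12). Rps21, which contacts Rpsa in the subunit, followed with -3.40 ± 0.14. Rps19, needed for processing of the 18S precursor and the gene most often mutated in Diamond-Blackfan anaemia, fell by 3.25 on the log2 scale. Rps27a, made as a fusion with ubiquitin that is then cut off, gave -3.09 ± 0.10, and Rps18, a protein of the head, -3.08 ± 0.11.

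The smallest differences were those of Rps6, Rps7, Rps2, Rps12 and Rpsa. Rps6, the substrate of S6 kinase, had 278, 249 and 260 CPM with N6, 416, 421 and 422 CPM with NSR and 1277, 1190 and 1243 CPM with dT. The dT libraries stood above the others without overlap, and the log2 fold change was -0.97 ± 0.07 (edgeR adjusted p = 2.4e-08). Rpsa, also known as the laminin receptor, had 353, 371 and 302 CPM with N6, 429, 435 and 459 CPM with NSR and 1696, 1849 and 1602 CPM with dT, with a log2 fold change of -1.21 ± 0.07. Rps7 gave -1.14 ± 0.10, Rps2 -1.18 ± 0.07 and Rps12 -1.20 ± 0.21, which became -2.12 ± 0.08 with the counts of near-identical copies added to the gene. Among the paralogs and fusion genes, Rps27 fell by 2.63, Rps27l by 2.31 and Fau by 2.43 on the log2 scale. The member with the smallest p was Rps20, a protein of the head, at -2.45 ± 0.07 (edgeR adjusted p = 7.14e-13). Rps20 had 142, 138 and 140 CPM with N6, 191, 211 and 246 CPM with NSR and 1881, 1857 and 1693 CPM with dT.

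The mixed sets N6dT and NSRdT (6 libraries) were then compared with the same 3 dT libraries. All 29 members were again lower, with 3.86% of all genes called lower, and all 29 were apart. Here the members lay close together. The median was -0.98 and the SD over members 0.17, against 0.90 for random primers alone. Apart from Rps12 at -1.70 ± 0.21 the values ran from -1.28 ± 0.13 for Rps21 to -0.80 ± 0.07 for Rpsa. Rps29, with 207, 189 and 188 CPM in N6dT and 236, 264 and 281 CPM in NSRdT libraries, gave -1.10 ± 0.20, which lies beside Rps6 at -0.87 ± 0.07 and Rps4x at -0.89 ± 0.09. Rps18 gave -1.18 ± 0.11, Rps24 -0.99 ± 0.07 and Rps14 -0.95 ± 0.07, the last pair with the smallest p-values (edgeR adjusted p = 4.59e-08 and 1.64e-07). Rps27 gave -1.19 ± 0.15, Rps27l -0.92 ± 0.15, Rps27a -0.86 ± 0.10, Rps2 -0.92 ± 0.07 and Rps20 -0.88 ± 0.07. With the copies added Rps12 stood at -1.17 ± 0.08. Fau, at -0.98 ± 0.24, was no longer called without dT replicate 2 (edgeR adjusted p = 0.0539, against 0.0168 with it).

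N6dT and NSRdT were compared with N6 and NSR, 6 libraries against 6. This comparison shares its libraries with the previous comparisons, and the values are given side by side only. Of the 29 members 26 were higher with added oligo(dT) and 0 lower, while 1.87% of all genes were called higher and 0.408% lower. The median was 1.02 against -0.02 for all genes. Rps29 rose by 3.75 ± 0.19, Rps28 by 2.83 ± 0.11, Rps27a by 2.24 ± 0.09 (edgeR adjusted p = 2.18e-10 for Rps28 and Rps27a), Rps19 by 2.12 ± 0.14 and Rps21 by 2.12 ± 0.12. Rpsa rose by 0.41 ± 0.06, Rps27l by 1.38 ± 0.13, Rps27 by 1.44 ± 0.13 and Fau by 1.45 ± 0.21. Rps2 was called at 0.26 ± 0.06 (edgeR adjusted p = 0.0262), but not without 10 of the 15 libraries taken singly, with values from 0.24 to 0.27. These were N6 replicates 1 and 2, all 3 of NSR, all 3 of N6dT, and NSRdT replicates 1 and 3. The 3 members not called were Rps12 at -0.50 ± 0.18, Rps6 at 0.10 ± 0.06 and Rps7 at 0.16 ± 0.09. Rps12 had 149, 161 and 173 CPM with N6 and 197, 137 and 67.1 CPM with N6dT, so that its N6dT libraries lay on both sides of the N6 values. With its copies added Rps12 rose by 0.95 ± 0.07 (edgeR adjusted p = 1.11e-07), and without N6dT replicate 1 the gene alone was called lower, at -0.71 (edgeR adjusted p = 0.0089).

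**Figure D2:**
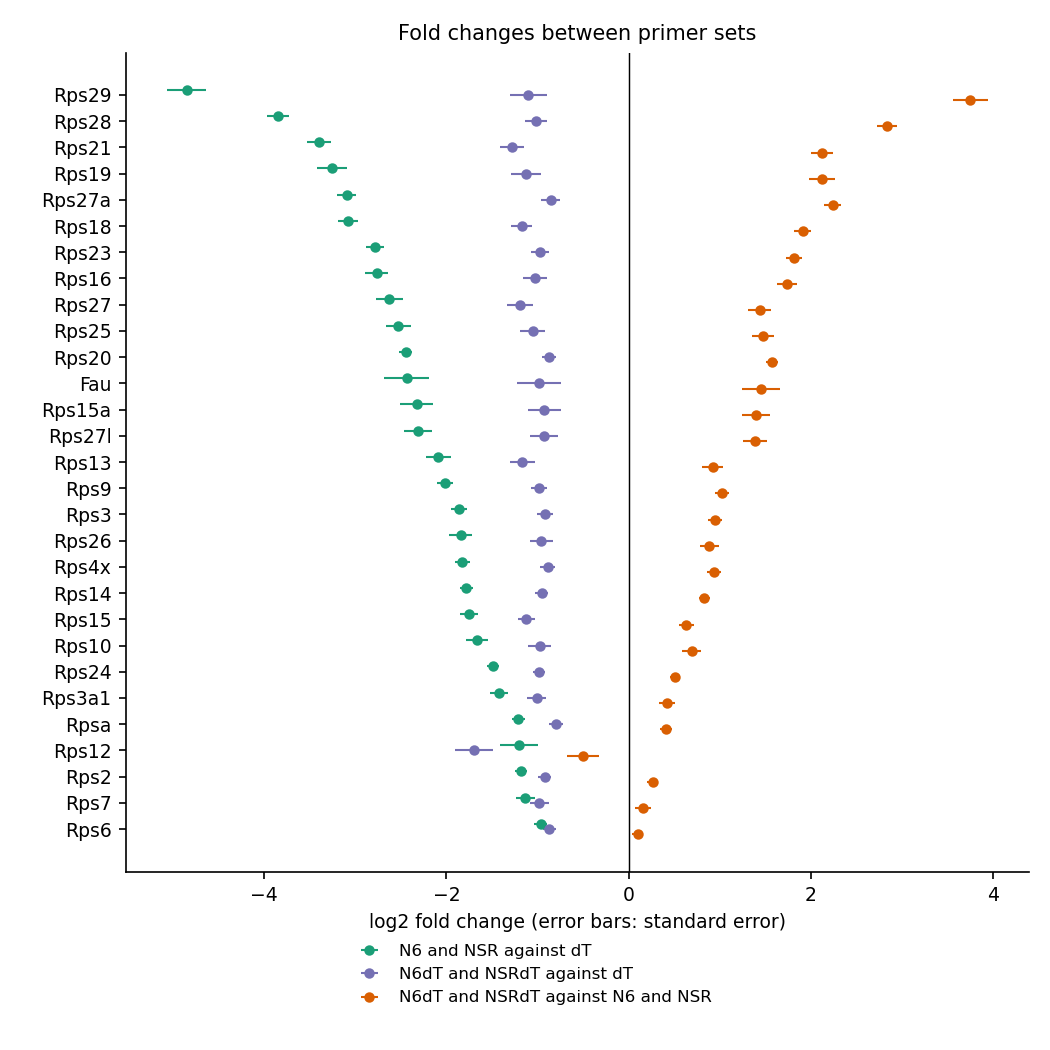
Log2 fold change of each member, with its standard error, for random primers against dT, for the mixed sets against dT and for the mixed sets against random primers. Members are sorted by the first comparison, which runs from -4.85 for Rps29 to -0.97 for Rps6, while the mixed sets lie between -1.28 and -0.80 apart from Rps12 at -1.70.

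NSR and N6 were compared over the 12 libraries that hold either primer. In this comparison 0 members were called higher and 3 lower, with 0.051% of all genes called higher and 0.128% lower. Over all genes 851 had an unadjusted p under 0.05, and DESeq2 called 1 member higher and 7 lower. Rps3, a protein at the mRNA entry site that also has roles in DNA repair, had 223, 248 and 229 CPM with N6 and 150, 170 and 131 CPM with NSR, but 362, 368 and 398 CPM with N6dT and 493, 484 and 476 CPM with NSRdT. NSR was thus the lower without oligo(dT) and the higher with it on this scale. The log2 fold change was -0.54 ± 0.08 (edgeR adjusted p = 0.00227). Rps24, a protein of the body of the subunit, gave -0.45 ± 0.06 (edgeR adjusted p = 0.000801) and Rps18 -0.59 ± 0.09 (edgeR adjusted p = 0.00967). The members not called ran from Fau at -0.64 ± 0.21 and Rps28 at -0.46 ± 0.10 to Rps13 at 0.24 ± 0.12, Rps21 at 0.32 ± 0.11, Rps12 at 0.47 ± 0.18 and Rps27l at 0.51 ± 0.13. Among them were Rps27 at -0.31 ± 0.13, Rps29 at -0.15 ± 0.18, Rpsa at -0.0311 ± 0.06, Rps27a at 0.0351 ± 0.09 and Rps2 at 0.10 ± 0.06. These directions rest on TMM scaling, which moved the comparison by -0.41 on the log2 scale. Scaled by library totals, 15 members were called higher and 0 lower, with a median of 0.38 for the members and 0.42 for all genes.

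The effect of added oligo(dT) was called different between NSR and N6 for Rps3 and Rps24, by the interaction term, with 0.051% of all genes called in that direction. Over all 15682 genes 686 had an unadjusted p under 0.05 for this term. Rps3 gained 0.88 ± 0.15 more on the log2 scale with NSR than with N6 (edgeR adjusted p = 0.0394) and Rps24 0.80 ± 0.11 more (edgeR adjusted p = 0.0146). Rps24 had 344, 329 and 345 CPM with N6 and 423, 408 and 409 CPM with N6dT. With NSR it had 241, 249 and 229 CPM and with NSRdT 531, 577 and 550 CPM. Of the 27 not called, the lowest were Rps27l at -1.18 ± 0.26, Rps13 at -0.93 ± 0.23, Rps21 at -0.71 ± 0.23 and Rps20 at -0.42 ± 0.12, and the highest Rps15 at 0.89 ± 0.16 and Rps18 at 0.99 ± 0.19. Rps18 was called without NSR replicate 1 (edgeR adjusted p = 0.0399). Fau stood at 0.87 ± 0.42, Rps27 at 0.63 ± 0.25, Rps29 at 0.20 ± 0.35, Rps2 at 0.0803 ± 0.12, Rps27a at -0.0114 ± 0.17 and Rpsa at -0.0973 ± 0.13. Rps3 was no longer called when any 1 of 14 of the 15 libraries was left out, the exception being NSR replicate 2 (edgeR adjusted p from 0.0566 to 0.183 for the 14), nor with the replicate block (edgeR adjusted p = 0.073). Rps24 was not called without any 1 of 9 libraries, namely N6 replicates 1 and 3, NSR replicate 3 and each library of N6dT and NSRdT (edgeR adjusted p from 0.0511 to 0.0859).

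The members' main transcripts were 345 to 5179 nt long, with a median of 614 nt. Of the 29, 13 were under 600 nt, 8 from 600 to 900 nt and 8 over 900 nt. The main transcript was chosen over all 18 libraries and need not be the main one in each group. For 2 members, Rps16 (518 nt) and Rps19 (593 nt), it is not annotated as coding. That of Rps16 held 0% of the gene's counts with N6 and 52.1% with dT. The longer classes lost less under random priming, with median log2 fold changes against dT of -2.43, -2.27 and -1.62. Protein-coding genes of the same classes had -1.04 (295 genes), -1.35 (526 genes) and 0.00 (11708 genes), so the members lay lower in each class. Across the 29 members, which share libraries and are not independent replicates, Spearman's rho between length and the log2 fold change was 0.41. For 12529 protein-coding genes it was 0.43. With the mean transcript length weighted by counts instead, rho over the members was 0.39. The members do not form a single line. Rps24 (468 nt) fell by 1.49 on the log2 scale and Rps27a (637 nt) fell by 3.09, while Rps20, whose main transcript has 3706 nt, fell by 2.45. Leaving out the 4 members over 1500 nt (Rps15a, Rps20, Rps3 and Rpsa) gave a rho of 0.50. With the mixed sets rho was 0.66, over a much narrower range of values. It was 0.62 with weighted length, 0.54 for members up to 1500 nt and 0.38 for protein-coding genes. Over the 26 members above 100 CPM in bulk, rho between bulk level and the log2 fold change was 0.50 with the mixed sets. It was 0.26 with random primers.

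**Figure D3:**
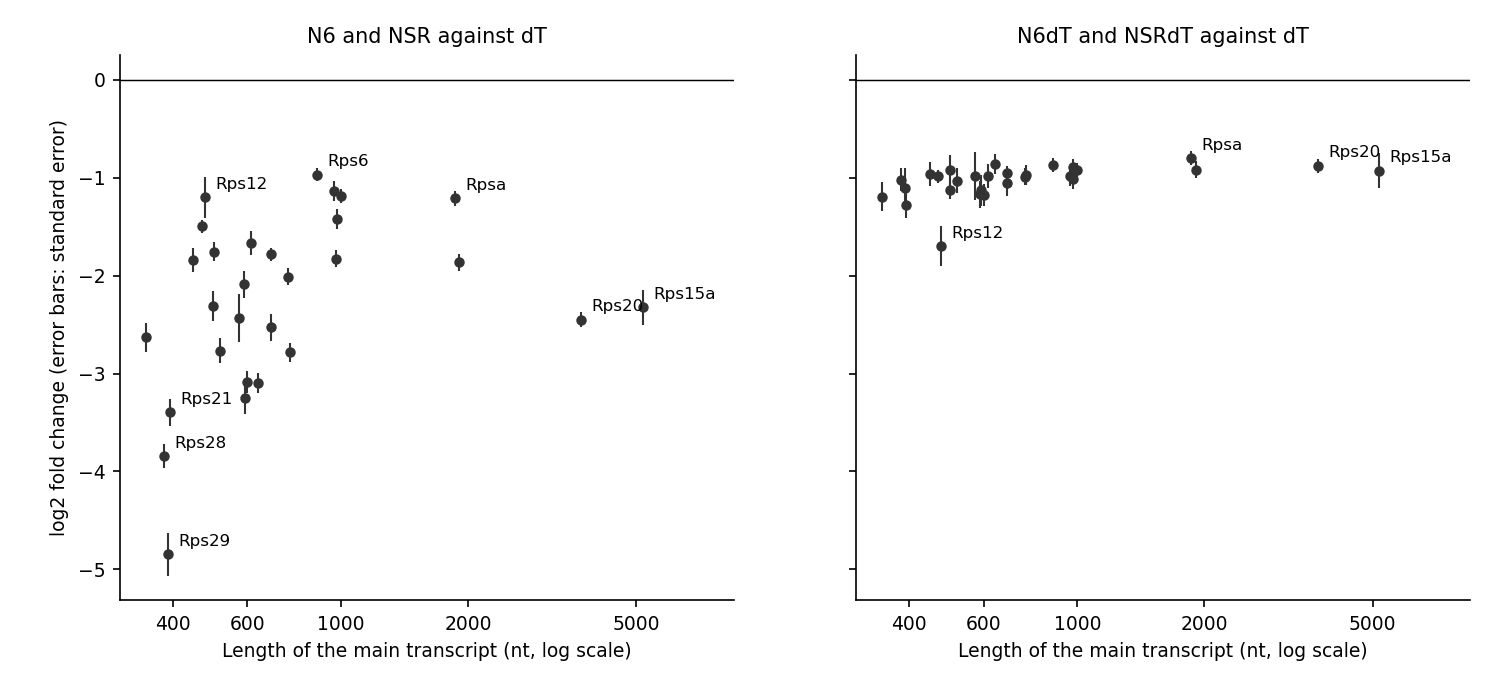
Log2 fold change against dT with its standard error, plotted against the length of each member's main transcript on a log scale, for random primers alone (left) and mixed sets (right). On the left the shortest members spread from -4.85 (Rps29) to -1.20 (Rps12), and on the right all but Rps12 lie within -1.28 and -0.80.

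Length was also set against bulk, as the slope over the members of log2((CPM + 0.5)/(bulk mean CPM + 0.5)) on log2 transcript length. A positive slope means that longer members gained relative to bulk. The slope over all 29 was -0.44 ± 0.02 (SD over 3 libraries) with dT, -0.36 ± 0.02 with NSRdT, -0.34 ± 0.03 with N6dT, -0.17 ± 0.07 with N6 and -0.10 ± 0.11 with NSR. With copies added the slopes were 0.04 with dT, 0.11 with NSRdT, 0.12 with N6dT, 0.33 with N6 and 0.39 with NSR, so each turned positive. No direction against length is therefore given for a group relative to bulk.

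In 22 members the table has at least 2 transcript entries. The mean transcript length weighted by counts was longer in every N6 and NSR library than in every dT library for 8 members, shorter for 2 (Rps4x and Rps24) and overlapped for 12. Rps20-001, the coding entry of 3706 nt, held 94.8% of the counts of Rps20 with either random set (SD 2.49 for N6 and 1.28 for NSR). The share was 35.3% ± 0.765 in bulk, 64.9% ± 0.683 with NSRdT, 67.5% ± 2.28 with dT and 67.7% ± 2.04 with N6dT. The mixed sets were thus close to dT, and bulk was lowest. Rps15a-001 of 5179 nt went the same way, from 77.4% ± 2.79 with N6 and 82.1% ± 4.91 with NSR to 49.7% ± 4.52 with dT and 34.3% ± 1.01 in bulk. Rps16-001 of 1109 nt held 13.2% ± 1.73 in bulk, 35.6% ± 3.99 with dT, 92.5% ± 6.82 with N6 and 98.3% ± 1.98 with NSR.

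Rps19-002, a retained-intron entry of 2657 nt, held 37.2% ± 13.7 of the counts of Rps19 with N6 and 41.3% ± 13.9 with NSR, against 1.22% ± 1.55 with dT and 6.27% ± 0.482 in bulk. For Rps24, whose last exons are known to be spliced in alternative ways, the 468 nt entry Rps24-201 held 92.6% ± 2.24 with N6 and 96.5% ± 1.76 with NSR. It held 72.3% ± 1.51 with dT and 42.3% ± 2.11 in bulk, where the 837 nt entry Rps24-202 held the other 57.7%. Rps3-001, the coding entry of 1908 nt, held less under random priming, 58.2% ± 3.83 with N6 and 42.5% ± 8.62 with NSR against 81.1% ± 2.26 with dT and 83.6% ± 0.594 in bulk. These 6 entries were chosen after their values were seen and carry no test. The counts are estimates that divide reads among overlapping entries, and how they were divided was not given in the sources used here.

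**Figure D4:**
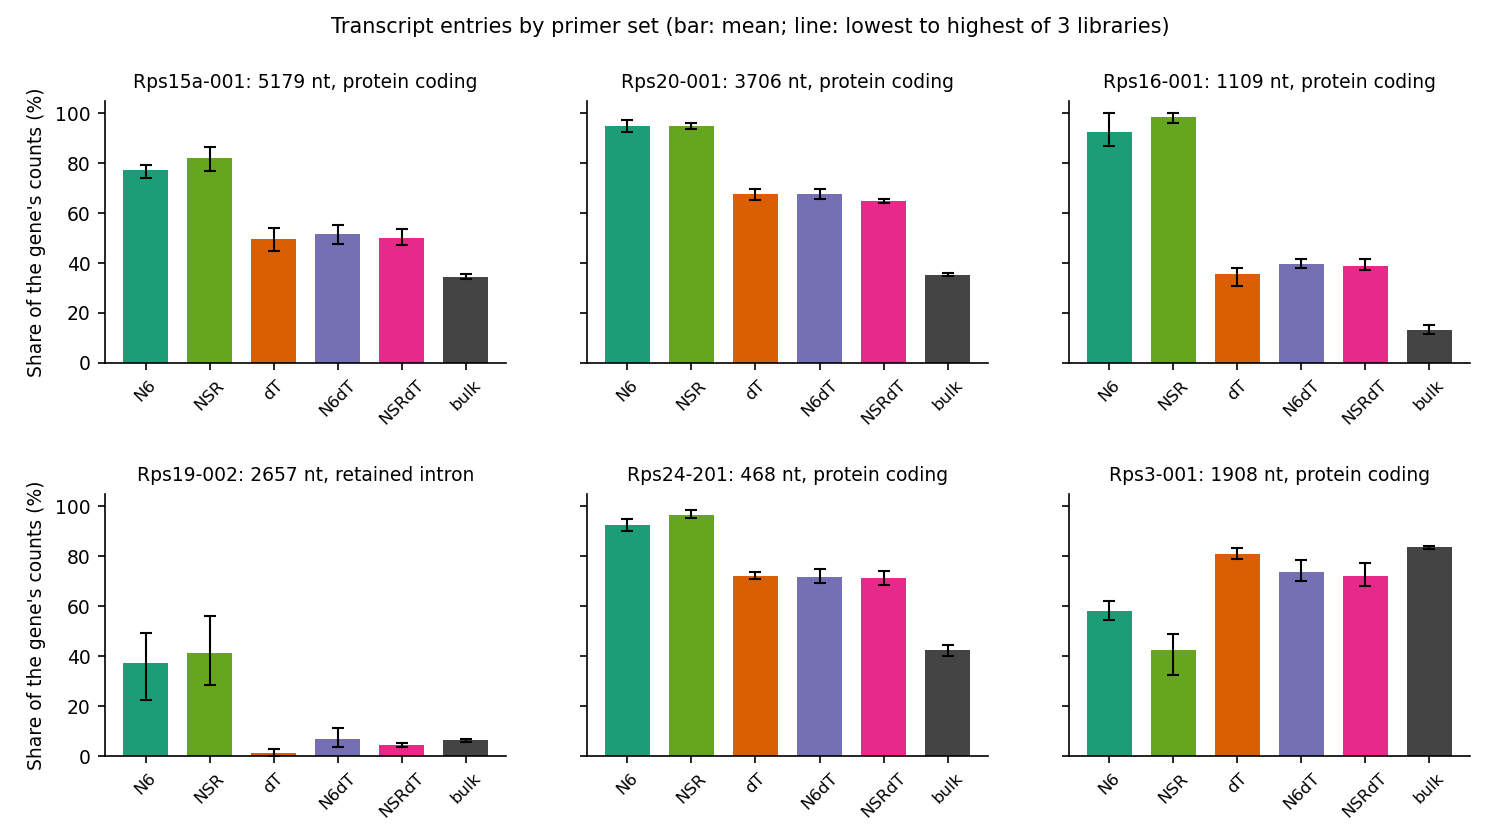
Share of a gene's estimated counts held by 1 transcript entry in each group, for 6 entries, with bars for the mean of 3 libraries and lines from the lowest to the highest library. In the first 5 panels N6 and NSR lie above all other groups, as with Rps20-001 at 94.8% against 67.5% with dT, and Rps3-001 runs the other way.

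Near-identical copies bear on several members. Of the 29, 12 have in the count table at least 1 other gene that holds 50% or more of the 31-base words of their transcript, with 37 such copies in all. All of these are called near-identical here, though some share little more than 50%. Members without such a copy can still share words with several genes. Over the 29, the median share of words found in any other gene was 62.2%. It was 78.4% for Rps4x and 76.5% for Rps25, which have no such copy, and 8.96% for Rps3. With N6 2 members, with dT 3 and in bulk 5 held under 50% of the counts that fell on the gene and its copies. Rps12, with 875, 941 and 1050 CPM in dT libraries, had 0 counts in all 3 bulk libraries. Its copy Rps12-ps3 had 838.7 CPM in bulk, 927 CPM with dT and 13.3 CPM with N6. Gene and copies together came to 881 ± 40.9 CPM in bulk, 1937 ± 112 CPM with dT and 175 ± 23 CPM with N6. The share of the gene among these counts was 29.2% ± 14 with N6dT, 49.5% ± 6.96 with dT, 92.7% ± 9.71 with N6 and 94.9% ± 2.37 with NSR. Against a floor of 3 counts per bulk library, the counts assigned to Rps12 alone were at least 529.6-fold higher with N6 than in bulk. With dT they were at least 3143-fold higher, both on the scale of library totals. The floor does not cover how counts were divided between gene and copies. Gene and copies together were lower with N6 than in bulk, so no direction against bulk is given for Rps12 as a single gene.

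Rps27, a zinc-binding protein, had 11.4, 11.8 and 10.8 CPM in bulk and 408, 495 and 327 CPM with dT, while Rps27rt, with the same coding sequence, had 567, 544 and 578 CPM in bulk. Rps27 held 1.98% ± 0.141 of the counts of the pair in bulk and between 57.2% and 64.9% on average in the RT-RamDA groups. Rps27l, with 76.1% identity to Rps27 and known as a target of p53, could be told apart by sequence. It had 111, 128 and 108 CPM in bulk, 238, 202 and 243 CPM with dT and 15.3, 13.5 and 15 CPM with N6. For Rps13 the gene held 13% ± 1.27 in bulk and 53.3% ± 4.62 with dT, the rest being mostly on Rps13-ps1. Fau went the other way, with 100% in bulk and 36.6% ± 1.73 with dT, since its copy Gm9843 had 0 CPM in bulk and 299.8 CPM with dT. Rps3a1 held 26.4% ± 2.75 with N6, 29.9% ± 0.938 with dT and 44% ± 0.738 in bulk, the rest being mostly on Rps3a2 and Rps3a3. Values of members with copies in the table, among them Rps12, Rps27, Rps13, Rps7, Rps2, Rps3a1 and Fau, are therefore uncertain as single genes against bulk. Some members without such a copy shared counts with named pseudogenes. For Rpsa these held 21.9% of the joint counts with N6, 21.6% with dT and 0.242% in bulk. For Rps15a it was 17.7%, 16.2% and 0.57%, and for Rps16 56.8%, 31.5% and 11.1%. Rpsa, Rps15a and Rps16 are thus also uncertain against bulk, and Rps16 between primer sets.

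**Figure D5:**
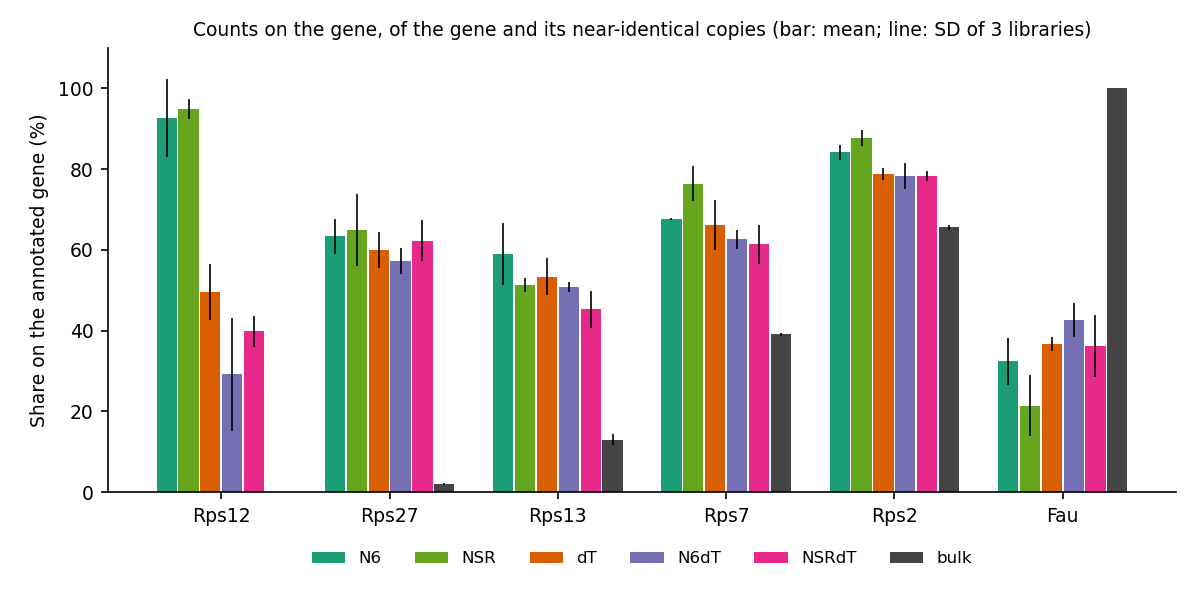
Share of the counts that fell on the annotated gene, out of the gene and its near-identical copies, for 6 members, with bars for the mean and lines for the SD of 3 libraries. Rps12 has 0 counts in bulk and so no bar there, Rps27 has 1.98% in bulk, and Fau has 100% in bulk against 36.6% with dT.

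Each primer set was last compared with bulk in a fit of its own 6 libraries. These fits share the 3 bulk libraries, and input, kit, rRNA depletion and PCR cycles differ between RT-RamDA and bulk and cannot be told apart. With N6 2 members were called higher and 22 lower (3.16% and 3.39% of all genes), with a median of -1.31. With NSR it was 3 higher and 22 lower (3.83% and 4.33%), with a median of -1.81. dT gave 23 higher and 2 lower (6.53% and 11.5%), with a median of 0.62. With N6dT 5 were higher and 13 lower (2.47% and 1.8%), median -0.29, and with NSRdT 5 higher and 15 lower (2.37% and 2.03%), median -0.34. Scaled by library totals the last splits became 3 higher and 26 lower for each of N6dT and NSRdT. The members counted as higher include Rps12, with 0 counts in bulk, and Rps27. With N6 they were the only such members, and with NSR Rps13 joined them. With near-identical copies added, 0 members were called higher with N6 or NSR, 2 with each mixed set and 24 with dT.

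Against bulk, Rps29 stood at -4.11 ± 0.23 with N6 (edgeR adjusted p = 0.000116), -4.37 ± 0.31 with NSR and 0.62 ± 0.06 with dT. Rps28 stood at -3.11 ± 0.14 with N6 and -3.95 ± 0.14 with NSR, and Rps21 at -2.75 ± 0.14 with N6. Against bulk Rps29 was lower also with N6dT (-0.45 ± 0.08) and NSRdT (-0.51 ± 0.09). These calls were lost without any 1 of the bulk libraries (edgeR adjusted p from 0.0953 to 0.217), for N6dT also without its replicate 2 or 3 (edgeR adjusted p = 0.05002 and 0.0559), and with the replicate block (edgeR adjusted p = 0.0828 and 0.0726). Fau stood at -2.60 ± 0.15 with N6 and -3.68 ± 0.32 with NSR, and with copies added at -0.96 and -1.50. Rps16, whose tail reaches the P site, stood at -2.43 ± 0.10 with N6. Its named pseudogenes held 56.8% of the joint counts with N6 and 11.1% in bulk, so this value is uncertain for the single gene. Rps19 stood at -2.94 ± 0.19 with NSR. Rps27a gave -2.35 ± 0.11 with N6, -2.32 ± 0.13 with NSR and 0.76 ± 0.09 with dT, the last not called without bulk replicate 3 (edgeR adjusted p = 0.0512). Rps27l gave -1.62 ± 0.15 with N6 and 1.24 ± 0.13 with dT. With NSR it was at -0.54 ± 0.14, which was called only without NSR replicate 1 (edgeR adjusted p = 0.049) among the libraries left out.

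Rpsa gave -0.88 ± 0.09 with N6, -0.88 ± 0.06 with NSR and 0.34 ± 0.06 with dT, the last not called without any 1 of the bulk libraries (edgeR adjusted p from 0.0798 to 0.0977). Rps2 gave -0.34 ± 0.10 with N6 (not called, but called without N6 replicate 3, edgeR adjusted p = 0.0227), -0.29 ± 0.06 with NSR and 0.87 ± 0.05 with dT. Its call with NSR was lost without NSR replicate 2 or any 1 of the bulk libraries (edgeR adjusted p from 0.0519 to 0.238), and with the replicate block (edgeR adjusted p = 0.148). Rps27, as a single gene, was higher than bulk by 3.12 ± 0.19 with N6, 2.48 ± 0.22 with NSR and 5.44 ± 0.19 with dT, and Rps13 by 1.23 ± 0.16 with NSR and 2.98 ± 0.17 with dT. Rps13 with N6 stood at 0.54 ± 0.17 and was not called, and its call with NSR was lost without bulk replicate 3 (edgeR adjusted p = 0.051). Rps7 stood at -0.0681 ± 0.09 with N6 and 0.24 ± 0.11 with NSR, neither called. With copies added Rps13 with dT was 0.95 and Rps27 0.50. Rps3a1 stood at -1.0 ± 0.12 with N6 and -0.84 ± 0.09 with NSR, and with copies added neither was called, at -0.27 and -0.0679 (edgeR adjusted p = 0.0629 and 0.716).

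Rps10, at the mRNA entry channel, was higher with dT by 1.27 ± 0.09, Rps20 by 1.28 ± 0.07 and Rps14, a protein of the platform, by 1.45 ± 0.08. Fau and Rps26 were the 2 members lower with dT, at -0.70 ± 0.10 and -0.39 ± 0.08, followed by Rps15 and Rps16, each at 0.17 and not called. Fau had 158, 187 and 175 CPM with dT and 327, 331 and 350 CPM in bulk, and Rps26, which touches the mRNA upstream of the start codon, 558, 488 and 489 CPM with dT and 797, 797 and 817 CPM in bulk. Neither was called without any 1 of the 3 bulk libraries (edgeR adjusted p from 0.0597 to 0.0856 for Fau and from 0.0846 to 0.129 for Rps26), and with Gm9843 added Fau was higher, at 0.75 ± 0.08.

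With the mixed sets Fau and Rps26 were again the lowest, at -1.57 ± 0.11 and -1.25 ± 0.08 with N6dT and -1.79 ± 0.17 and -1.44 ± 0.11 with NSRdT, followed by Rps15 at -0.96 ± 0.07 and -0.95 ± 0.08 and Rps16 at -0.87 ± 0.11 and -0.85 ± 0.08. With its copies added Fau stood at -0.33 in both and was not called (edgeR adjusted p = 0.0723 with N6dT and 0.0809 with NSRdT). Rps16 with N6dT was not called without bulk replicate 1 or 3 (edgeR adjusted p = 0.0598 and 0.0602). Rpsa was lower by -0.41 ± 0.07 with N6dT and -0.50 ± 0.06 with NSRdT. It was not called without bulk replicate 1 or 3 for N6dT (edgeR adjusted p = 0.115 and 0.139) or without bulk replicate 3 for NSRdT (edgeR adjusted p = 0.0652). Rps27a at -0.0974 and -0.0808, Rps2 at -0.11 and 0.0216 and Rps27l at 0.36 and 0.27 were not called. Rps27 stood at 4.25 ± 0.14 with each mixed set, and Rps13 at 1.94 ± 0.14 with N6dT and 1.70 ± 0.18 with NSRdT. The highest apart from Rps12, Rps27 and Rps13 were Rps14 and Rps20, at 0.57 ± 0.06 and 0.48 ± 0.07 with N6dT and 0.44 ± 0.06 and 0.32 ± 0.06 with NSRdT. Scaled by library totals both turned lower (Rps14 -0.63 and -0.28, Rps20 -0.72 and -0.39). With N6dT neither was called without bulk replicate 3 (edgeR adjusted p = 0.053 for Rps14 and 0.106 for Rps20). With NSRdT neither was called without any 1 of the bulk libraries, with edgeR adjusted p from 0.0535 to 0.131 for Rps14 and from 0.142 to 0.264 for Rps20. Rps20 was also lost without NSRdT replicate 2 or 3 (edgeR adjusted p = 0.0551 and 0.0576). With near-identical copies added, a choice made after seeing the data, the members called higher fell to 2 for each mixed set and to 0 for N6 and NSR. Rps27 then turned lower, at -2.52 with NSR, -1.89 with N6, -0.73 with NSRdT and -0.61 with N6dT. Without bulk replicate 2 the counts were 17 higher and 0 lower with dT, 5 and 8 with N6dT, 3 and 11 with NSRdT, 2 and 22 with N6, and 3 and 19 with NSR. Without replicate 1 they were 17 and 0 with dT, 5 and 5 with N6dT and 3 and 9 with NSRdT, and without replicate 3 they were 14 and 0, 3 and 5, and 3 and 7.

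Genes for the assembly of the small subunit were set beside the members. Factors that assemble the 40S subunit, most of them in the nucleolus, gave 6 calls lower and 3 higher of 48 tested with random primers against dT, with a median of -0.23. Over all genes 7.61% were called lower and 9.46% higher. The smallest p-values were those of Utp20 (1.37 ± 0.18, edgeR adjusted p = 4.98e-05) and Fcf1 (-1.68 ± 0.25, edgeR adjusted p = 0.000167), both parts of the small-subunit processome.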

How the data were processed

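The authors deposited estimated counts (expected counts, not whole numbers) per transcript entry for all 18 libraries, per the file headers, with no further scaling. Reads were converted with bcl2fastq 2.16.0.10 and mm10 was used, per the submitters' processing notes. The aligner, the quantifier and the use of strand were not given in the sources used here. The series text counts 12 RT-RamDA samples and 15 are listed.

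Entries were summed per gene identifier, rounded and tested in edgeR 4.0.16 (R 4.3.3) with filterByExpr, TMM scaling and the robust quasi-likelihood test, with Benjamini-Hochberg adjustment at 0.05. DESeq2 1.42.0 served as an alternative. The 15 RT-RamDA libraries shared a fit, and each bulk comparison had a fit of 6 libraries. CPM used library totals without spike-ins. Reads carried no molecular identifiers, so the floor of 3 counts covers counting error only. Copies were found by shared 31-base words in GENCODE vM21.

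Values are given for the 4 highest, the 4 lowest and the 2 members of smallest p in a comparison, for Rpsa, Rps2, Rps27, Rps27l, Rps27a, Rps29 and Fau, and for others chosen after their values were seen. Rps12 against bulk is given only as a bound on counts assigned to the gene, and it is among the members counted as higher. Members and lists were chosen with earlier results of these data known. Alternatives were other scalings, no filter, pseudogenes added, a replicate block, each library left out and, chosen after seeing the data, copies added, members up to 1500 nt and totals without rRNA-like loci. The fits were tested on simulated data. Some other genes of the small subunit and a sequence are not reported here.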

Additional observations from a re-analysis of the deposited data

Results flagged for a closer look

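The effect of added oligo(dT) was called different between NSR and N6 in 2 members by the interaction term of the edgeR fit. For Rps24 the gain with NSR exceeded that with N6 by 0.798 on the log2 scale, and for Rps3 by 0.88. Both calls were lost when single libraries were left out, as given with the values of each library above.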

How the results depend on the processing

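All 29 members stayed lower than dT, with random primers and with mixed sets, under every setting that keeps all libraries. Scaled by library totals, the median log2 fold change of the members became -3.02 for random primers against dT, -1.68 for mixed sets against dT, 1.26 for added oligo(dT) and 0.38 for NSR against N6 (15 higher, 0 lower). Against bulk it became 0.36 with dT, -1.05 with NSRdT and -1.49 with N6dT (3 higher and 26 lower for each mixed set), -2.68 with N6 and -2.81 with NSR, and the interaction had 4 calls. On that scale Rps13 turned to -0.83 with N6, Rps14 to -0.63 with N6dT and -0.28 with NSRdT, and Rps20 to -0.72 and -0.39. Rps7 turned to -0.76 with NSR, Rps15 and Rps16 to -0.0960 and -0.0954 with dT, Rps27l to -0.84 with N6dT and -0.45 with NSRdT, and Rps2 to -0.70 with NSRdT. For NSR against N6, Rpsa turned to 0.38, Rps27 to 0.10 and Rps29 to 0.26, and for the interaction Rpsa to 0.0248 and Rps27a to 0.11. DESeq2 called 1 member higher and 7 lower with NSR against N6, 5 and 2 for the interaction, and 8 higher than bulk with each mixed set. With DESeq2 size factors or DESeq2 the medians against bulk were 0.60 with dT and -0.30 with NSRdT. Without a filter, 1 member was lower with added oligo(dT), 1 was lower with dT than in bulk and 3 were higher with NSRdT, with medians of 0.57 (dT), -0.39 (N6dT) and -0.43 (NSRdT), and Rps2 with NSRdT was -0.0694. With pseudogenes added, 1 member was higher than bulk with N6, 1 with NSR, 3 with N6dT and 3 with NSRdT, with medians of -1.67 (NSR), 0.69 (dT) and -0.31 (NSRdT). Rps13 against bulk was then -1.61 with N6, -0.74 with NSR, -0.0183 with N6dT and -0.0946 with NSRdT, Rps12 with added oligo(dT) was 0.91, Rps2 with NSRdT -0.35 and Rps27a in the interaction 0.0145. With copies added, 0 members were higher than bulk with N6, 0 with NSR, 2 with N6dT and 2 with NSRdT, and 1 was lower with dT. Rps13 was then -1.62, -0.74, -0.0216 and -0.098 in the same order, Rps27 -1.89, -2.52, -0.61 and -0.73, Fau with dT 0.75, Rps12 with added oligo(dT) 0.95, Rps7 with NSR -0.72, Rps2 with NSRdT -0.23, Rps3a1 0.0920 with N6dT and 0.0634 with NSRdT, and Rps27a in the interaction 0.0112. The cause of the changes was not tested.

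Same-numbered libraries did not deviate together (r from -0.0456 to 0.0473, 3 of 18 libraries closest to their own number), so the numbers do not pair the libraries. With the replicate block, 1 interaction call was left, 1 member was lower with dT than in bulk, 8 were lower with N6dT and 3 were higher with NSRdT. Leaving out 1 library gave medians from -2.23 to -2.02 for random primers against dT, from -1.83 to -1.62 for NSR, 0.59 to 0.70 for dT and -0.38 to -0.31 for NSRdT against bulk. Uncalled values near 0 changed sign, namely Rpsa (from -0.0713 to 0.0047) and Rps27a (from -0.0216 to 0.0867) for NSR against N6, Rps2 (from -0.0255 to 0.13) and Rps27a (from -0.114 to 0.102) in the interaction, and Rps2 with NSRdT against bulk (from -0.0385 to 0.0398). Counts ran from 0 to 1 lower with added oligo(dT), from 0 to 2 for the interaction, from 14 to 24 higher and 0 to 2 lower with dT, from 3 to 5 higher and 5 to 13 lower with N6dT, and from 3 to 5 higher and 7 to 15 lower with NSRdT.

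The slope on length against bulk was 0.16 (pseudogenes added), 0.12 (members with a mean of 10 CPM or more in every group) and 0.33 (copies added) with N6. With NSR it was 0.21, 0.21 and 0.39, and 0.13 for members up to 1500 nt. In the order weighted length, pseudocount 5, pseudogenes added, members at 10 CPM or more, members up to 1500 nt and copies added, it was -0.63, -0.33, -0.12, -0.17, -1.21 and 0.0401 with dT, -0.50, -0.24, -0.0475, -0.0951, -1.03 and 0.12 with N6dT, and -0.53, -0.26, -0.0559, -0.10, -1.03 and 0.11 with NSRdT. The members' share of counts without rRNA and mitochondrial genes was 3.12% with dT, 2.02% in bulk, 1.37% with NSRdT, 1.08% with N6dT, 0.637% with NSR and 0.542% with N6, and also without the 6 rRNA-like loci 3.86%, 2.24%, 1.97%, 2.03%, 1.02% and 1.09%. Depth limits Fau and Rps29 most, with under 100 counts in some random-primed libraries.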
